A study of Mus musculus with 24 samples.

Results

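The 10 genes described here, Coq2, Coq3, Coq4, Coq5, Coq6, Coq7, Coq8a, Coq9, Coq10a and Coq10b, encode proteins of coenzyme Q synthesis and use. They were chosen by gene symbol from a list drawn up with earlier results of these data known, so the counts over the 10 genes describe them and carry no independent weight. All 10 were among the 10393 genes of the table of 16 h, and 9 were among the 7723 genes of the table of 72 h, where Coq4 was not analysed here. Every gene present passed the filter on low counts.

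The series is named for activation of CISD2, an iron-sulfur protein, against the cardiotoxicity of doxorubicin, an anthracycline used in cancer chemotherapy. Poly(A) mRNA from whole hearts of wild-type (WT) mice was sequenced. At 16 h there were 4 groups of 3 libraries: V received vehicle, H received hesperitin (a citrus flavonoid) at 10 mg/kg/day, DOX received doxorubicin at 25 mg/kg, and DOXH received both. At 72 h, 3 V and 3 DOX libraries were used, of which 1 DOX library is numbered unlike any labelled sample and was placed by its group name alone. The other groups of that time were not analysed here. All groups share the WT genotype and 1 batch in the labels. Neither strain, sex, age, the route of dosing nor whether each library came from its own animal is stated, and p-values therefore cover the spread among these libraries alone, which may be technical.

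Coenzyme Q is a lipid of the mitochondrial inner membrane that takes electrons from complex I, complex II and other dehydrogenases and hands them to complex III, and that also acts as a lipid-soluble antioxidant. Its ring and its isoprenoid tail are made separately. COQ2 joins them, and COQ3, COQ5, COQ6 and COQ7 then modify the ring in a protein assembly to which COQ4 and COQ9 belong and which COQ8A, an atypical kinase-like protein, assists. COQ10A and COQ10B are START-domain proteins that bind the finished lipid and are needed, as known best from yeast Coq10, for its work in respiration. Heart muscle relies on mitochondrial respiration and is a tissue rich in coenzyme Q.

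Promoter sequences (250 bases before and 50 from the start site on, RefSeq, GRCm38.p6) were matched for 9 of the 10 genes, all but Coq5, with 12 start sites. The sequences of Coq10b and Coq10a are shown because these were the genes with the largest change after doxorubicin at 16 h and at 72 h, and that of Coq2 because its change passed the test at neither time. Each reads 5′ to 3′ along the gene, from chr1:55052520-55052819 on the plus strand for Coq10b, chr10:128368931-128369230 on the minus strand for Coq10a and chr5:100674207-100674506 on the minus strand for Coq2. Capitals mark matches on either strand to CCAAT, to the sequence TGACG (the core of a cyclic AMP response element), to CACGTG (an E-box) or to AAGATGGCG (a YY1 motif).
Coq10b: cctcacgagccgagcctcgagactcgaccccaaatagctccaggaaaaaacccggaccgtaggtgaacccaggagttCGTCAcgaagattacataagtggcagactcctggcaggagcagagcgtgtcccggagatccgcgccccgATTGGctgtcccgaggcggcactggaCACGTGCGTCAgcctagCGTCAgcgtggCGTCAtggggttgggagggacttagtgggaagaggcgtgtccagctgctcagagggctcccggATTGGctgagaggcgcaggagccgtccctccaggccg
Coq10a: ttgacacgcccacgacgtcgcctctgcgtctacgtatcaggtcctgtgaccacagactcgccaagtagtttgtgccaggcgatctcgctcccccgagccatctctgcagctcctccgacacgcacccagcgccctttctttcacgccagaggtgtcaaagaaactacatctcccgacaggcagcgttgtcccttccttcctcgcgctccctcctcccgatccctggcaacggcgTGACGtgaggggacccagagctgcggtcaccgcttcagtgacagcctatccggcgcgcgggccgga
Coq2: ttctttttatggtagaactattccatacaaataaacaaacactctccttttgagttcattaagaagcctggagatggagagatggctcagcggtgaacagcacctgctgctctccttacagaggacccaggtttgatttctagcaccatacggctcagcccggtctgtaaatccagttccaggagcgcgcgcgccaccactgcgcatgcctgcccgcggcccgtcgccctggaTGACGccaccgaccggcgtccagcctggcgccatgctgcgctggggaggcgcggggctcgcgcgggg

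The window of Coq10b held 4 matches to TGACG, all on the strand opposite to the gene, 1 to CACGTG and 2 to CCAAT, none overlapping. At least 4 matches to TGACG were present in 0.231% of the 32851 RefSeq mouse promoters of the same length. The windows shown for Coq10a and Coq2 each held 1 TGACG, starting 16 and 17 bases before the start site. Coq10a has another start site in the table, at chr10:128369988-128370287, whose window held no match to any of these motifs and is not shown. Among the 9 genes, TGACG was matched in 6 (in 20.8% of all promoters), CCAAT in 4 (37.4%), CACGTG in 2 (7.15%), and AAGATGGCG in Coq9 alone (1.40%). TNAAGGTCA, the binding motif of estrogen-related receptors, and CGCATGCG, the core motif of nuclear respiratory factor 1, were matched in 0 of the 9, against 1.28% and 1.87% of all promoters. These matches describe the letters of the windows.

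Total counts ran from 9255651 to 20587578 per library, with the H libraries of 16 h at 17664060 to 19869050 and the other 9 libraries of that time at 9255651 to 11074450. CPM values (read counts relative to the library total, scaled with TMM factors within a time) are compared within a time. The 3 DOXH libraries stood apart from each other. The summed level of 13 cardiomyocyte markers was 57093, 52680 and 80506 CPM in DOXH replicates 1, 2 and 3, against 74937 to 84641 in V and 43936 to 46620 in DOX. Results that rest on DOXH are therefore given with and without single libraries. Exons of 5 of the genes overlap a gene on the opposite strand (Coq4 with Trub2 over 921 bases, Coq8a with Cdc42bpa over 366, Coq10b with E330011M16Rik over 343, Coq6 with Fam161b over 128 and Coq9 with Ciapin1 over 38). The strand setting of the counting is not given in the sources used here, so reads within the shared bases of such pairs cannot be told apart.

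Levels per length (CPM divided by the length of the longest annotated transcript in kilobases) spanned a wide range in vehicle hearts. At 16 h the order ran from Coq9 at 167 ± 5.83 (SD, n = 3) CPM per kb, Coq10a at 118 ± 5.04 and Coq8a at 97.8 ± 5.61 down to Coq6 at 12.5 ± 1.53 and Coq4 at 2.96 ± 0.386. Between them lay, on the same scale, Coq5 at 45.3 ± 2.54, Coq2 at 39.7 ± 1.59, Coq10b at 28.2 ± 3.91, Coq7 at 19.9 ± 0.873 and Coq3 at 16.7 ± 2.07. The libraries of all 9 neighbouring pairs in this order did not overlap. That spread does not cover the length used, since the longest annotated transcript need not be the one expressed. In the V hearts of 72 h the same 3 genes led, with Coq9 at 173 ± 3.99 CPM per kb, and the libraries of Coq2 and Coq5, of Coq7 and Coq10b, and of Coq10b and Coq3 overlapped. In DOX hearts at 72 h the level per length of Coq10a was 45.4 ± 9.14 CPM per kb, below the 55.5 ± 8.79 of Coq8a, and the libraries of these neighbours overlapped.

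**Figure D1:**
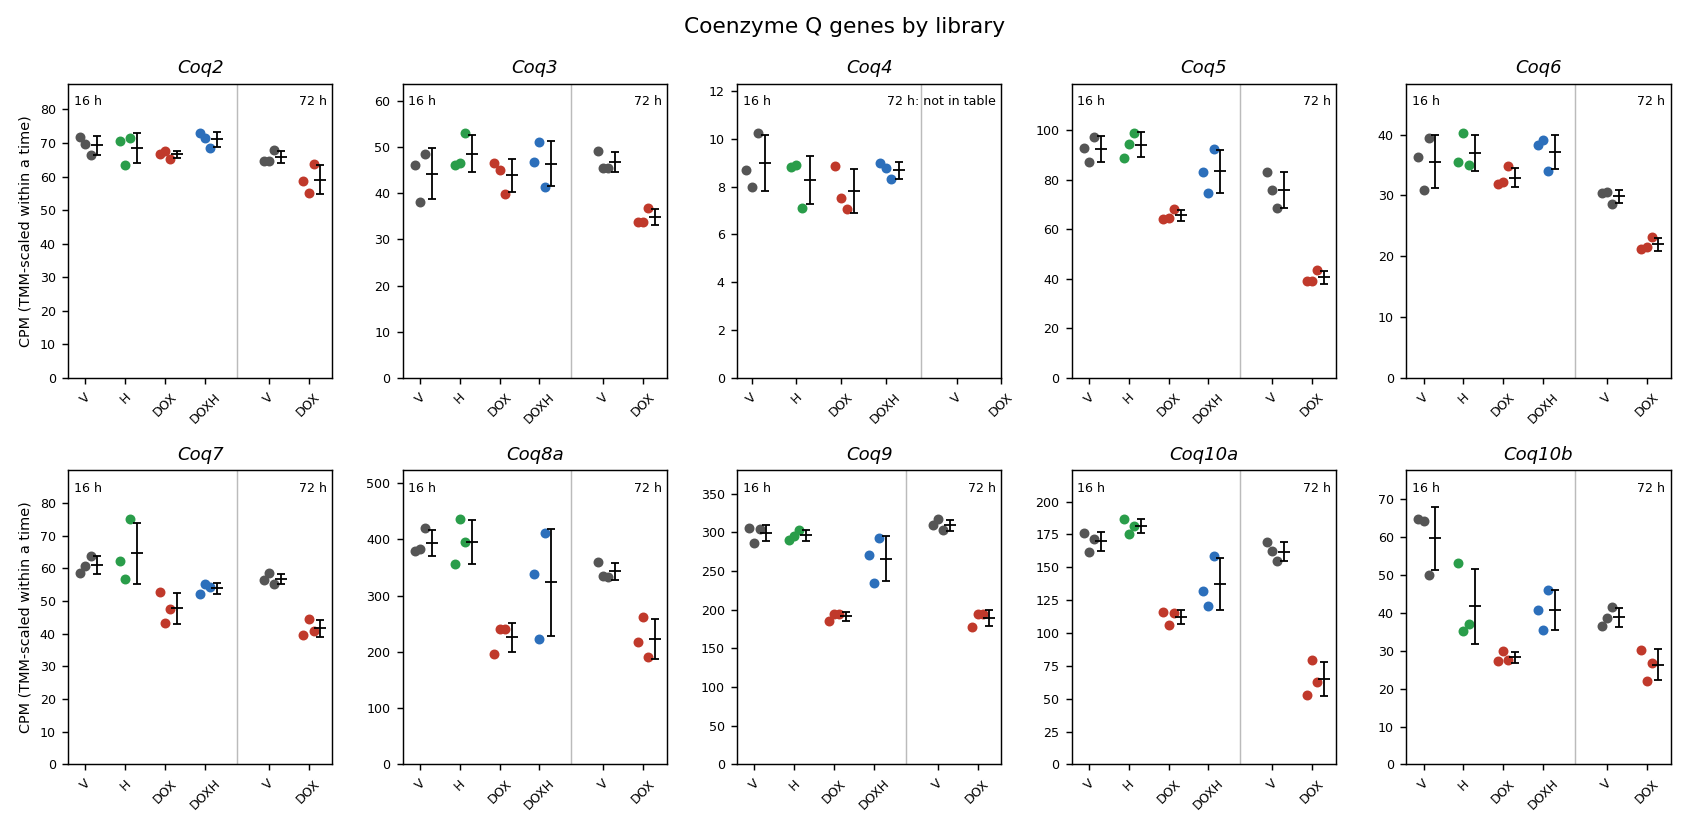
CPM of each gene (y axis, starting at 0, TMM-scaled within a time) in every library, by group, at 16 h (left of the line) and 72 h (right). Points are libraries, and the horizontal marks with bars are the mean ± SD of 3 libraries. DOX libraries lie below V libraries without overlap for 6 of 10 genes at 16 h and for 9 of 9 at 72 h. Of all genes, 28% and 32.2% show that separation. The DOXH libraries of Coq8a spread from 223 to 411 CPM.

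Comparing DOX with V at 16 h asked how the genes stood soon after doxorubicin. Coq10b, Coq8a, Coq9, Coq10a, Coq5 and Coq7 were lower in doxorubicin-treated hearts, by 1.28-fold (Coq7) to 2.11-fold (Coq10b). Coq2, Coq3, Coq4 and Coq6 did not pass the test. The 6 lower genes stand beside 16.6% of all 10393 genes that were called lower and 15.6% that were called higher (edgeR, adjusted p under 0.05), and none of the 10 was called higher. The median log2 fold change of the 10 genes was −0.42, against 0.02 over all genes. With library totals in place of TMM factors the median of all genes was 0.22, Coq2, Coq3 and Coq6 had values above 0 (0.14, 0.19 and 0.09), and 5 genes were called lower. That fit called 4250 of all 10393 genes in either direction. DOX lay below V in every library for 6 genes, and 28% of all genes showed such a separation in that direction.

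Coq10b, a coenzyme Q-binding protein of chromosome 1 (GRCm38, 55052770 to 55072702), showed the largest difference at 16 h. Its CPM was 64.7, 64.3 and 50.1 in V and 27.3, 30.0 and 27.7 in DOX. The lowest V library lay well above the highest DOX library. This was a log2 fold change of −1.08 ± 0.16 (SE; adjusted p = 0.0025).

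Its paralog Coq10a (chromosome 10, 128363100 to 128368997) stood at 176, 162 and 171 CPM in V and 116, 106 and 115 CPM in DOX. The groups did not overlap, and each was tight. On the log2 scale the difference was −0.60 ± 0.10 (adjusted p = 0.0027).

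Among the regulators and partners of the synthesis complex, Coq9, which encodes the lipid-binding partner of COQ7, had 305, 287 and 305 CPM in V and 185, 195 and 194 CPM in DOX. All DOX libraries were lower, with little spread in either group. The log2 fold change of Coq9 was −0.64 ± 0.08 (adjusted p = 0.0021), and that of Ciapin1, which shares 38 exonic bases with it, was −0.52 ± 0.09 (adjusted p = 0.0032). Coq8a read 379, 382 and 419.9 CPM in V and 196, 241 and 241 CPM in DOX, again without overlap. The change on the log2 scale was −0.80 ± 0.18 (adjusted p = 0.0087), while Cdc42bpa, the gene on the other strand, was higher by 0.33 ± 0.09 (adjusted p = 0.021). Coq4, a member of the complex with few reads, had 8.68, 7.98 and 10.3 CPM in V and 8.84, 7.54 and 7.06 CPM in DOX. These groups overlapped, and its log2 fold change was −0.20 ± 0.15 (adjusted p = 0.31).

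Of the enzymes that act on the ring, Coq5, the C-methyltransferase, showed the clearest difference. It had 92.9, 86.9 and 97.3 CPM in V and 64.1, 64.3 and 68.1 CPM in DOX, with no overlap. On the log2 scale DOX differed from V by −0.50 ± 0.09 (adjusted p = 0.0035). Coq7, the hydroxylase that acts late in the pathway, had 58.5, 60.7 and 63.9 CPM in V and 52.8, 43.3 and 47.4 CPM in DOX. The groups lay apart by a small gap. Its log2 fold change was −0.35 ± 0.11 (adjusted p = 0.027), and the call was lost in 5 of the 6 fits without a single V or DOX library (adjusted p 0.055 to 0.10).

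The other enzymes had overlapping groups at 16 h. Coq2, the prenyltransferase that joins ring and tail, had 71.7, 69.8 and 66.3 CPM in V and 66.8, 67.6 and 65.3 CPM in DOX, with a log2 fold change of −0.06 ± 0.07 (adjusted p = 0.56). Coq3, the O-methyltransferase, had 46.1, 38.1 and 48.6 CPM in V and 46.7, 45.1 and 39.9 CPM in DOX, with a log2 fold change of −0.01 ± 0.11 (adjusted p = 0.95). The ring hydroxylase gene Coq6 had 36.3, 30.8 and 39.5 CPM in V and 31.8, 32.2 and 34.7 CPM in DOX, with a log2 fold change of −0.11 ± 0.10 (adjusted p = 0.44). These p-values do not show that the levels were equal.

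At 72 h after doxorubicin 8 of the 9 genes were called lower than in vehicle hearts, and Coq2 was lower without passing the test. Coq10a and Coq5 had the largest differences, 2.49-fold and 1.87-fold lower, and the other 6 genes that passed the test were 1.34-fold (Coq3) to 1.64-fold (Coq9) lower. The 8 genes called lower stand beside 27.2% of all 7703 genes tested that were called lower and 26.5% that were called higher, so doxorubicin hearts differed broadly at this time. The median log2 fold change of the 9 genes was −0.56, against 0.01 over all genes. All 3 DOX libraries lay below all 3 V libraries for 9 of the 9 genes and for 32.2% of all genes. With library totals alone the median of all genes was 0.42, Coq5, Coq9 and Coq10a were called lower at −0.49, −0.29 and −0.90, and Coq2 was called higher at 0.26. That fit called 5602 of all 7703 genes in either direction, and the value of Coq2 lay below the median of all genes.

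Coq10a had 169, 162 and 155 CPM in V and 53.2, 79.1 and 62.9 CPM in DOX at 72 h. The highest DOX library lay far below the lowest V library. On the log2 scale this was −1.32 ± 0.14 (adjusted p = 9.5e-05). Coq10b had 36.5, 38.7 and 41.5 CPM in V and 30.3, 21.9 and 26.9 CPM in DOX, a smaller gap than that of Coq10a. Coq10b had a log2 fold change of −0.56 ± 0.12 (adjusted p = 0.0038).

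Coq5 stood at 83.0, 75.7 and 68.7 CPM in V and 39.1, 39.0 and 43.6 CPM in DOX at 72 h. Every DOX library was far under the lowest V library. Its fold change was −0.90 ± 0.09 on the log2 scale (adjusted p = 7.7e-05). Coq3 read 49.2, 45.6 and 45.5 CPM in V and 33.8, 33.8 and 36.8 CPM in DOX, and the groups that overlapped at 16 h lay apart. For Coq3 the log2 fold change was −0.43 ± 0.08 (adjusted p = 0.0014). Coq6 had 30.3, 30.5 and 28.6 CPM in V and 21.2, 21.5 and 23.1 CPM in DOX, again apart. For Coq6 it was −0.44 ± 0.08 (adjusted p = 0.0016), whereas Fam161b on the other strand was higher by 0.79 ± 0.13 (adjusted p = 0.0010).

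The hydroxylase gene Coq7 had 56.3, 58.5 and 55.3 CPM in V and 39.6, 44.6 and 40.8 CPM in DOX at 72 h, with a log2 fold change of −0.44 ± 0.07 (adjusted p = 0.0011). Its partner Coq9 had 309, 317 and 302 CPM in V and 177, 194 and 195 CPM in DOX, with a log2 fold change of −0.71 ± 0.08 (adjusted p = 0.00012). Both genes showed DOX libraries close together and far from V, and Ciapin1, the neighbour of Coq9, stood at 0.05 ± 0.09 (adjusted p = 0.65). Coq8a read 360.3, 336 and 333 CPM in V and 217, 261 and 191 CPM in DOX, and the DOX libraries, although below V, varied among themselves. Its log2 fold change was −0.62 ± 0.12 (adjusted p = 0.0019). Coq2 had 64.7, 64.7 and 67.9 CPM in V and 58.6, 55.0 and 63.7 CPM in DOX, where the highest DOX library came within about 1 CPM of V. Its log2 fold change was −0.15 ± 0.08 (adjusted p = 0.12), and it passed the test without the unnumbered DOX library (−0.21, adjusted p = 0.045).

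**Figure D2:**
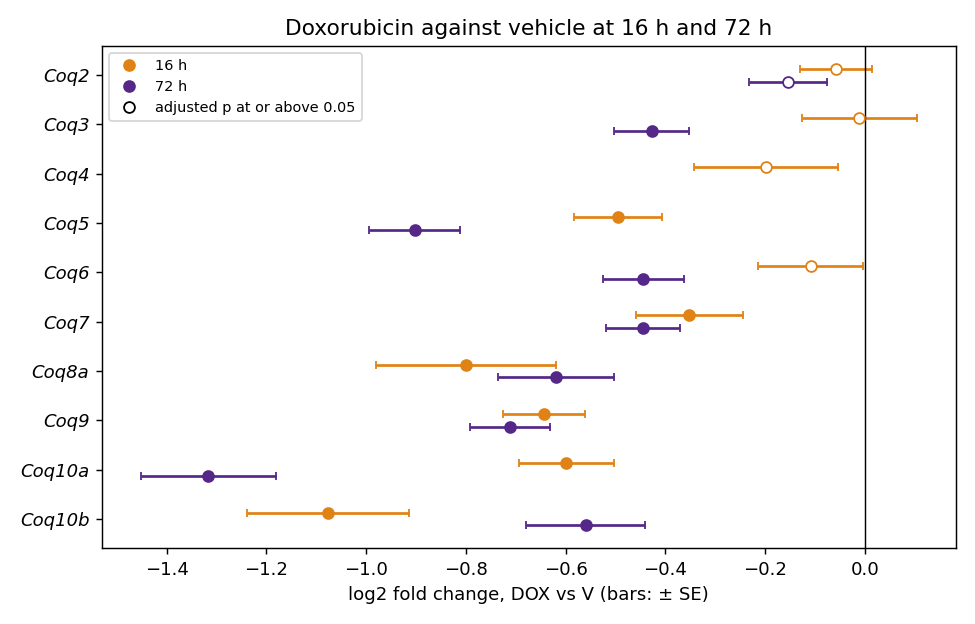
Log2 fold change of DOX against V (x axis; bars are ± SE from edgeR) for each gene at 16 h and 72 h, with filled points where the adjusted p was under 0.05. Coq10b has the lowest value at 16 h (−1.08) and Coq10a at 72 h (−1.32), and Coq2 is open at both times.

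Whether the doxorubicin difference itself changed between 16 h and 72 h was tested in a fit of V and DOX of both times on the 7407 genes in both tables. It differed for 5 of 9 genes, beside 35.6% of all genes. The difference was larger at 72 h for Coq10a, by −0.74 ± 0.16 on the log2 scale (adjusted p = 0.0032), for Coq3 by −0.44 ± 0.13 (adjusted p = 0.017), for Coq5 by −0.43 ± 0.11 (adjusted p = 0.010) and for Coq6 by −0.36 ± 0.12 (adjusted p = 0.035). Coq10b went the other way, its difference being smaller at 72 h by 0.50 ± 0.17 (adjusted p = 0.040). Its mean, in CPM scaled within each time, was 59.7 in V and 28.3 in DOX at 16 h, and 38.9 and 26.4 at 72 h. The smaller difference alone does not show a rise in DOX hearts, and CPM scaled within a time cannot show how levels moved between times. Coq2, Coq7, Coq8a and Coq9 did not pass this test, with values from −0.12 to 0.16. The calls of Coq6 and Coq10b were each lost in 8 of the 12 fits without a single library, and that of Coq3 in 1 (without V replicate 1 of 72 h, adjusted p = 0.053). In a fit of all 18 libraries the calls of Coq6 (adjusted p = 0.062) and Coq10b (adjusted p = 0.098) were also lost. With library totals alone, Coq10a (−0.54, adjusted p = 0.028) and Coq10b (0.70, adjusted p = 0.0074) passed the test, beside 2928 of all 7407 genes. Time of harvest cannot be told apart from whatever else separated the tables of the 2 times, since each time had its own table and its own V libraries.

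Adding hesperitin to doxorubicin was compared at 16 h as DOXH against DOX. The DOXH value was above that of DOX for all 10 genes, with log2 fold changes from 0.08 (Coq3) to 0.53 (Coq10b) and a median of 0.23, against −0.01 over all genes. None passed the adjusted test in edgeR, beside 0% of all 10393 genes. At an unadjusted p under 0.05 there were 1958 genes, among them Coq5, Coq8a, Coq9, Coq10a and Coq10b, and DESeq2 called 390 genes, among them Coq5 and Coq9. All 3 DOXH libraries lay above all 3 DOX libraries for Coq2, Coq5, Coq9, Coq10a and Coq10b, and 10.1% of all genes showed that separation. With library totals the median of all genes was −0.17, and the values of Coq2 and Coq3 were −0.06 and −0.07.

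Coq9 had 271, 234 and 293 CPM in DOXH replicates 1, 2 and 3, above the 185 to 195 CPM of DOX and mostly below the 287 to 305 CPM of V. Replicate 3 lay inside the V range and replicate 2 was nearest to DOX. Against DOX, the DOXH libraries differed by a log2 fold change of 0.48 ± 0.08 (adjusted p = 0.13), with an adjusted p of 3.8e-05 in DESeq2. Coq10b read 40.8, 35.6 and 46.1 CPM in DOXH, between DOX and V in every library, with a log2 fold change of 0.53 ± 0.16 (adjusted p = 0.16). Coq8a, the gene whose DOXH libraries differed most, stood at 339, 223 and 411 CPM, so that replicate 2 lay inside the DOX range and replicate 3 inside the V range. Its log2 fold change was 0.52 ± 0.18 (adjusted p = 0.18).

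Coq10a had 132, 121 and 159 CPM in DOXH, all above the DOX range and all below the V range, with a log2 fold change of 0.29 ± 0.10 against DOX (adjusted p = 0.17). Coq5 had 83.0, 74.6 and 92.2 CPM in DOXH, where replicate 3 reached the V range, with a log2 fold change of 0.35 ± 0.09 (adjusted p = 0.13). For Coq5, Coq8a, Coq9, Coq10a and Coq10b the order of the DOXH libraries was the same, with replicate 2 lowest and replicate 3 highest, which is also their order in the cardiomyocyte markers. For Coq2, Coq3, Coq4 and Coq6 replicate 3 was the lowest. Coq7 had 52.0, 55.3 and 54.2 CPM in DOXH, overlapping DOX and below V. Without DOXH replicate 2, 5 of the 10 genes were called higher than in DOX (Coq5, Coq8a, Coq9, Coq10a and Coq10b, at 0.38 to 0.73 with adjusted p 0.0045 to 0.039), and 1554 of all genes were called in that fit. Each of the other fits without a single DOX or DOXH library called 0 of the 10 and 0 of all genes.

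**Figure D3:**
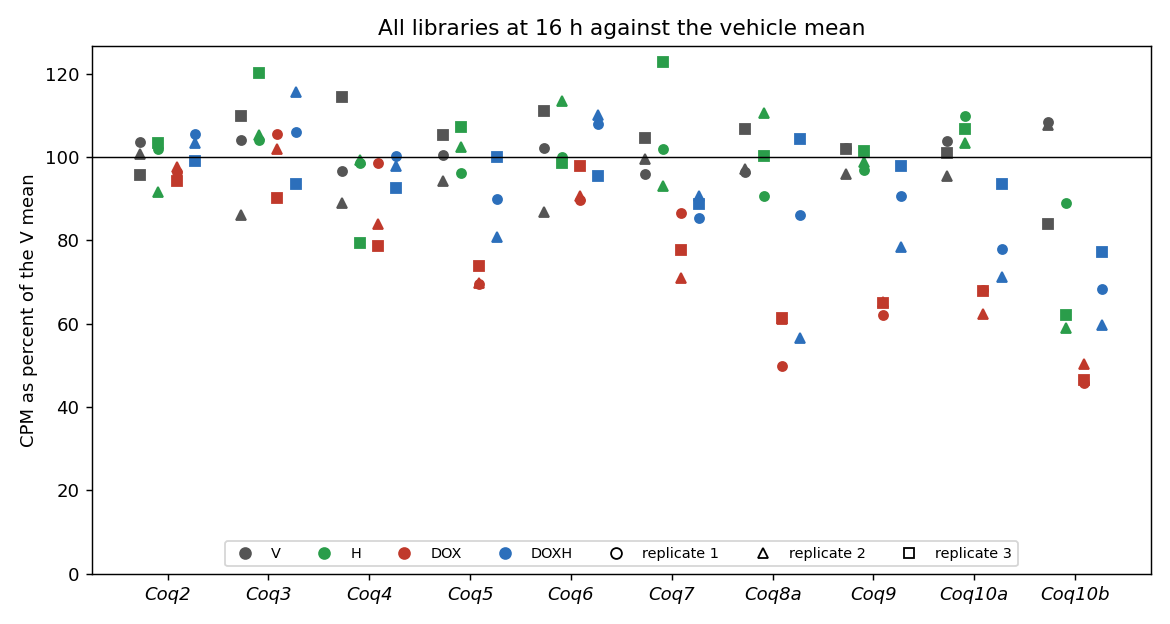
CPM of each gene in all 12 libraries of 16 h as percent of the mean of the V libraries (y axis, starting at 0), with colours for groups and marker shapes for replicates. The DOXH libraries of Coq8a, Coq9 and Coq10a run from replicate 2 as the lowest (56.6%, 78.4% and 71.1%) to replicate 3 as the highest, and H replicates 2 and 3 of Coq10b lie at 59.0% and 62.0%.

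Hesperitin alone was compared with vehicle at 16 h. None of the 10 genes passed the adjusted test, beside 0% of all genes. At an unadjusted p under 0.05 there were 664 genes, among them 1 of the 10, and DESeq2 called 13 genes and none of the 10. That gene was Coq10b, with 53.1, 35.2 and 37.0 CPM in H. H replicate 1 lay inside the V range of 50.1 to 64.7 CPM and the other replicates below it. In edgeR the log2 fold change was −0.52 ± 0.16 (adjusted p = 0.60), and without H replicate 1 it was −0.73 (adjusted p = 0.049), in a fit that called 47 of all genes. None of the 10 was called in the other fits without a single H or V library. The other 9 genes had log2 fold changes from −0.11 (Coq4) to 0.14 (Coq3), each with H and V libraries that overlapped.

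DOXH against V and against H gave no call among the 10 genes. In DOXH against V, 0% of all genes were called by edgeR, 1749 had an unadjusted p under 0.05 (Coq10a and Coq10b among them) and DESeq2 called 131, none of the 10. Coq10b had a log2 fold change of −0.55 ± 0.16 (adjusted p = 0.20) and Coq10a of −0.31 ± 0.10 (adjusted p = 0.21), and both were called without DOXH replicate 3, at −0.64 and −0.43, in a fit that called 1674 of all 10393 genes, a share near that of the 10. In DOXH against H, 0.154% of all genes were called, and 2558 had an unadjusted p under 0.05. Coq10a came nearest, at −0.40 ± 0.10 (adjusted p = 0.062; 0.0058 in DESeq2), with 186, 176 and 181 CPM in H, all above DOXH. Without DOXH replicate 3, 2 of the 10 genes and 2298 of all 10393 genes were called in that comparison, so the share among the 10 was near that of all genes. These comparisons share the DOXH libraries, and none of their other fits without a single library called any of the 10.

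The interaction asked whether the doxorubicin difference depended on hesperitin at 16 h. It was called for 0% of all genes, and 1228 genes, among them Coq5, Coq9 and Coq10b, had an unadjusted p under 0.05. Coq10b had the largest value, 1.04 ± 0.23 on the log2 scale (adjusted p = 0.28). Its 4 group means were 59.7 ± 8.28 CPM in V, 41.8 ± 9.85 in H, 28.3 ± 1.46 in DOX and 40.8 ± 5.25 in DOXH (SD, n = 3), so H and DOXH stood at about the same level. Coq9 stood at 0.49 ± 0.12 (adjusted p = 0.30) and Coq5 at 0.32 ± 0.12 (adjusted p = 0.38). DESeq2 called 53 genes, Coq9 and Coq10b among them with adjusted p of 0.016 and 0.015. Without DOXH replicate 2 edgeR called 3 of the 10 genes and 254 of all 10393, and without H replicate 1 it called Coq10b and 29 genes in all. The other fits without a single library called none of the 10.

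Whole hearts hold many cell types, and fewer cells of a type cannot be told apart from less RNA per cell in these data. Of the coenzyme Q genes, 6 of 10 were called lower in DOX at 16 h (median log2 fold change −0.42) and 8 of 9 at 72 h (median −0.56). These counts and those of the markers below stand beside the calls over all genes. At 16 h 16.6% of all genes were called lower and 15.6% higher, and at 72 h 27.2% and 26.5%. All 13 cardiomyocyte markers were called lower in DOX at 16 h (median log2 fold change −0.73) and 12 of 13 at 72 h (median −1.29). At 72 h their summed level was 63228 to 73289 CPM in V and 26232 to 31202 CPM in DOX. Their summed level in H was 73947 to 85787 CPM at 16 h. Summed neutrophil markers were 21.9 to 67.9 CPM in V and 132 to 241 CPM in DOX at 16 h, and 0.957 to 1.98 and 26.4 to 133 CPM at 72 h, with 0 of 5 tested markers called at 16 h and 3 of 3 called higher at 72 h. Summed macrophage markers were 274 to 336 CPM in V and 299 to 380.4 CPM in DOX at 16 h (1 of 9 called higher, 1 lower), and 226 to 295 and 333 to 416 CPM at 72 h (5 of 8 higher, 1 lower). Summed mural markers were 1247 to 1255 CPM in V and 1072 to 1127 CPM in DOX at 16 h (2 of 8 lower), and 976 to 1011 and 775 to 872 CPM at 72 h (2 of 8 lower). Abcc9 made up most of the fall in the mural sum at 16 h, and at 72 h it fell by more than that sum. Its means were 410 CPM in V and 267 CPM in DOX at 16 h, and 293 and 97.6 CPM at 72 h. At each time 3 of the 8 mural markers had log2 fold changes above 0 (Acta2, Myh11 and Tagln at 16 h). Endothelial markers overlapped at 16 h (1136 to 1224 CPM in V, 1119.9 to 1228 CPM in DOX; 2 of 10 lower) and were 1089.9 to 1212 CPM in V and 1499 to 1956 CPM in DOX at 72 h (5 of 10 higher, 1 lower). Fabp4 made up most of that rise, with means of 431 CPM in V and 843 CPM in DOX. Fibroblast markers also overlapped at 16 h (1693 to 2193 and 1953 to 2257 CPM, 0 of 9 called) and were 1213 to 1619.9 CPM in V and 1682 to 2552 CPM in DOX at 72 h (2 of 8 higher, 1 lower). Dcn made up most of the fibroblast rise, with means of 431 CPM in V and 936 CPM in DOX at 72 h. Erythroid markers were lower in DOX for 2 of 5 genes at 16 h and for 5 of 5 at 72 h, when their sum was 1436 to 3523 CPM in V and 20.6 to 33.0 CPM in DOX. The part of any of these cell types in the coenzyme Q results was not tested.

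Other genes tied to coenzyme Q were partly lower after doxorubicin. Of 12 listed, 10 were tested at 16 h, 4 of them were lower and none higher, with a median log2 fold change of −0.23. Of all genes, 16.6% were called lower and 15.6% higher at that time. Pdss2 (−0.75 ± 0.12, adjusted p = 0.0026) and Pdss1 (−0.68 ± 0.16, adjusted p = 0.0096) encode the subunits of the synthase that makes the isoprenoid tail. Stard7 (−0.60 ± 0.11, adjusted p = 0.0045) encodes a lipid transfer protein that moves coenzyme Q out of mitochondria, and Pptc7 (−0.52 ± 0.10, adjusted p = 0.0048) a mitochondrial phosphatase. At 72 h, 3 of 7 were lower and 1 was higher, beside 27.2% and 26.5% of all genes. Pdss2 stood at −1.29 ± 0.15 (adjusted p = 0.00016), Pptc7 at −0.84 ± 0.09 (adjusted p = 9.6e-05) and Stard7 at −0.73 ± 0.08 (adjusted p = 0.00012), and Nqo1, which encodes a quinone reductase, was higher at 1.22 ± 0.11 (adjusted p = 5.1e-05).

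The mevalonate pathway supplies the isoprenoid units. At 16 h, 1 of 8 tested genes was lower, Fdft1 (−0.58 ± 0.13, adjusted p = 0.0085), which encodes squalene synthase of the sterol branch, and the list's median was 0.00. At 72 h, 1 of 3 was lower, Hmgcs1 (−0.50 ± 0.10, adjusted p = 0.0024), and 1 higher, Ggps1 (0.30 ± 0.09, adjusted p = 0.020). The 1 of 8 stands beside 16.6% of all genes called lower at 16 h. The counts at 72 h stand beside 27.2% called lower and 26.5% called higher.

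Enzymes that pass electrons to or from coenzyme Q were lower in part. Of 11 tested genes for the dehydrogenases that reduce it, counting single subunits and the electron carrier genes Etfa and Etfb, 7 were lower at 16 h. The smallest p was that of Sdhd and Sdhc, membrane subunits of complex II (−0.51 ± 0.09 and −0.56 ± 0.11), Dhodh, of pyrimidine synthesis (−0.91 ± 0.19), and Sdhb (−0.28 ± 0.06), with adjusted p 0.0034 to 0.0096. At 72 h, 6 of 10 were lower, led by Sdhb (−0.59 ± 0.09), Sdha (−0.57 ± 0.08), Sdhd (−0.59 ± 0.09) and Prodh, of proline breakdown (−0.89 ± 0.15), with adjusted p 0.00056 to 0.0010. Of the 5 subunits of the coenzyme Q-binding module of complex I, 4 were lower at each time. Ndufs7 had the lowest value at 16 h (−0.53 ± 0.08) and Ndufs8 at 72 h (−0.90 ± 0.09). Of 9 nuclear genes of complex III, 5 were lower at each time, Uqcrc1 at −0.32 ± 0.07 at 16 h and −0.96 ± 0.08 at 72 h among them. The medians of these lists ran from −0.22 to −0.32 at 16 h and from −0.27 to −0.45 at 72 h, and none of these genes was called higher. Of all genes, 16.6% were called lower and 15.6% higher at 16 h, and 27.2% and 26.5% at 72 h.

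Regulators of mitochondrial genes were lower for 5 of 9 at 16 h and 8 of 8 at 72 h, beside 16.6% and 27.2% of all genes. At 16 h Esrrg and Esrrb, encoding estrogen-related receptors, stood at −1.38 ± 0.21 and −1.04 ± 0.16, Ppara, encoding a lipid-sensing nuclear receptor, at −0.99 ± 0.16 and Nrf1 at −0.61 ± 0.21, with adjusted p 0.0025 to 0.044. At 72 h Ppara stood at −1.42 ± 0.10, Esrrg at −0.97 ± 0.08, Ppargc1b, encoding a coactivator of these receptors, at −1.39 ± 0.23 and Esrrb at −0.60 ± 0.11, with adjusted p 2.3e-05 to 0.0017. In DOXH against DOX none of the genes of these 6 lists passed the adjusted test, beside 0% of all genes.

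**Figure D4:**
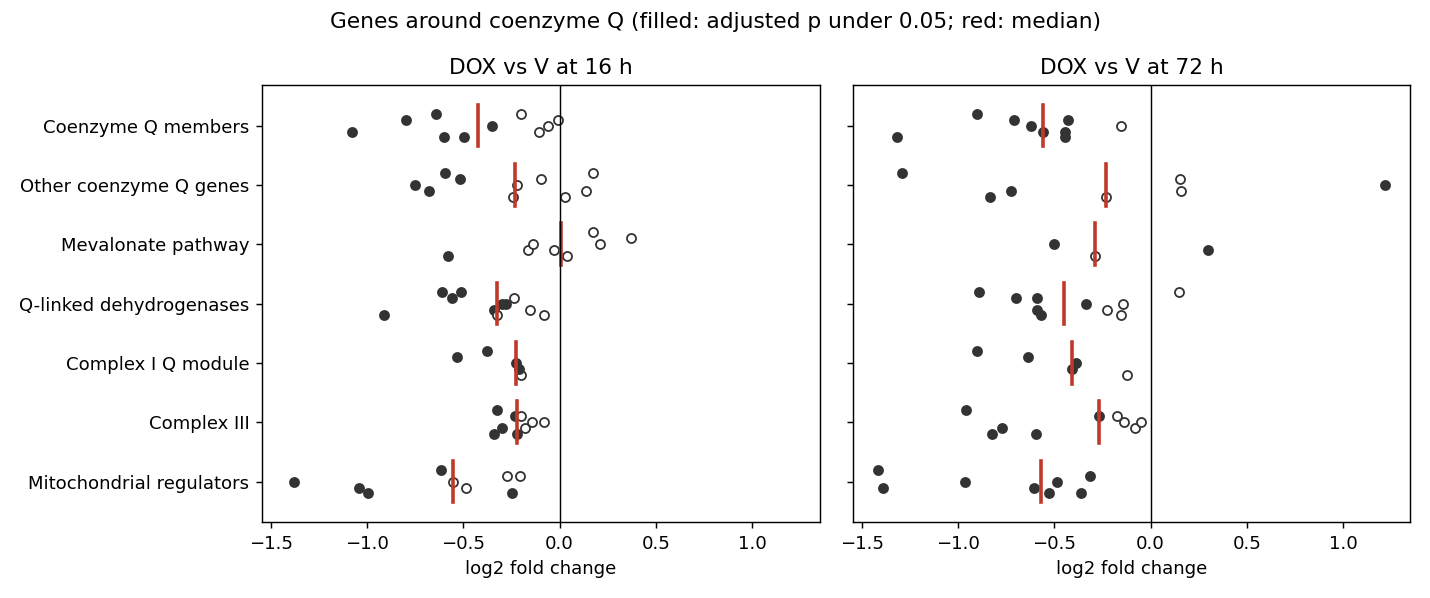
Log2 fold change of DOX against V (x axis) at 16 h and 72 h for the coenzyme Q genes and 6 related gene lists; each point is a gene, filled where the adjusted p was under 0.05, and red lines are list medians. The coenzyme Q genes have medians of −0.42 and −0.56, and Nqo1 is the point at 1.22 among the other coenzyme Q genes at 72 h.

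The 10 genes did not all vary together. Over the 12 libraries of 16 h the Pearson correlation of log2 CPM between pairs ran from −0.19 to 0.98 with a median of 0.35 (45 pairs), and over the 6 libraries of 72 h from 0.46 to 0.99 with a median of 0.90 (36 pairs). These values describe libraries that share treatment, depth and tissue makeup. The genes most like Coq10b over the 12 libraries of 16 h were Alpl (r = 0.94), Zfhx2 (0.93) and Atg4d (0.92), and over the 6 libraries of 72 h they were Ppm1a (0.996), Pfn2 (0.992) and Smad4 (0.992). The genes most like Coq10a were Casq2 (0.996), Dpy30 (0.990) and Ptges3l (0.990) at 16 h, and Tmem201, Asb2 and Gcdh (0.999 to 1.00) at 72 h. Casq2 encodes a calcium-binding protein of the cardiac sarcoplasmic reticulum.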

How the data were processed

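Poly(A) mRNA of WT mouse hearts was sequenced as single-end Illumina reads after RNA of RIN 8 or less had been left out, per the labels' protocols. The authors deposited expected counts per gene, estimates that need not be whole, made with RSEM on GRCm38 (mm10), per the submitters' processing notes, which also name DESeq2. Not given in the sources used here are versions, annotation, strand setting and the rule by which genes were kept in the tables. Of the columns at 72 h, 6 match no label and were not used, and 1 DOX column carries the number 4, which no label has, while no column matched the labelled DOX replicate 3. It entered as a DOX library without a number, and whether it is that sample was not settled.

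Expected counts were rounded and tested with edgeR 4.0.16 (R 4.3.3; TMM, filterByExpr, robust quasi-likelihood F test on group means) over all genes, with Benjamini-Hochberg adjustment and a threshold of 0.05, in fits of 12 libraries (16 h, 8 residual df), 6 libraries (72 h, 4 df) and, for the change between times, the 12 V and DOX libraries (8 df). The SE is the absolute log2 fold change divided by the square root of F. Log2 CPM values had 2 as prior count. The tests were tried on simulated data. No pair of libraries agreed within sampling noise.

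The members, lists and tests were chosen with earlier results of these data known, and the promoter motifs after the sequences were seen. All members were named in each comparison; of other lists, up to 4 genes past the threshold with the smallest p in DOX against V, fewer in places; and the 3 genes most correlated with the members of largest change. Positions are from GENCODE M21 and promoters from RefSeq, both GRCm38. Alternatives were DESeq2 1.42.0, RLE factors, no filter, a mean of at least 5 CPM, only the groups compared, a replicate block and each library left out. Library totals and a fit of all 18 libraries were added after the data were seen.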

Additional observations from a re-analysis of the deposited data

Results flagged for a closer look

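The doxorubicin difference changed between 16 h and 72 h for 5 genes, by a test of that change itself in edgeR over 7407 genes, of which 35.6% were called. The log2 values (72 h minus 16 h) were −0.74 for Coq10a, 0.50 for Coq10b, −0.44 for Coq3, −0.43 for Coq5 and −0.36 for Coq6. The paralogs Coq10a and Coq10b had opposite signs. For Coq10b the means, in CPM scaled within each time, were 28.3 in DOX at 16 h and 26.4 at 72 h, and 59.7 and 38.9 in V. For Coq10a the call held in all 12 fits without a single library, and for Coq6 and Coq10b it was lost in 8 of 12 and in the fit of all 18 libraries.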

How the results depend on the processing

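For DOX against V at 16 h, 5 to 6 genes were called in the fits without a single library and 5 with library totals. Those fits called 1928 to 2409 of all 10393 genes, and library totals called 4250. Coq3 went above 0 without DOX replicate 3 (0.0554), V replicate 1 (0.0202) or V replicate 3 (0.0614), with −0.108 to 0.0614 over all such fits. With library totals, values above 0 were 0.137 for Coq2, 0.186 for Coq3 and 0.0928 for Coq6. At 72 h, 8 to 9 genes were called without a single library and 4 with library totals, where Coq2 was at 0.26. Of all genes, 3397 to 4022 were called without a single library, and 5602 of 7703 with library totals. For the difference between times, 2 to 5 genes were called without a single library, 2 with library totals, 3 with all 18 libraries and 3 with the replicate block. Of all 7407 genes these settings called, in the same order, 2204 to 2748, 2928, 1960 and 2394. Library totals put Coq2 at 0.0811, Coq7 at 0.0857 and Coq9 at 0.108. In DOXH against DOX, DESeq2 called 2 genes (390 of all genes), the fits without a single library 0 to 5 (0 to 1554 of all genes), and library totals put Coq2 at −0.0609 and Coq3 at −0.0699. Without a single library the counts were 0 to 1 in H against V, 0 to 2 in DOXH against V, 0 to 2 in DOXH against H and 0 to 3 for the interaction, beside 0 to 47, 0 to 1674, 0 to 2298 and 0 to 254 of all 10393 genes; DESeq2 called 1 in DOXH against H and 2 for the interaction, beside 718 and 53 genes. Library totals leave out the TMM factors, which differed between V and DOX. These were 0.924 to 0.996 in V and 1.07 to 1.15 in DOX at 16 h, and 0.851 to 0.891 and 1.14 to 1.18 at 72 h. The calls of Coq3, Coq6, Coq7, Coq8a and Coq10b at 72 h were lost with library totals and so depend on that scaling. Which scaling fits these hearts better was not tested, nor was the cause for the other settings.

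The labels' replicate numbers were not taken to pair the libraries: 4 of 18 same-numbered pairs at 16 h deviated together with a correlation over 0.1 (range −0.42 to 0.25). At 72 h, where 2 pairs share a number, both were over 0.1 (0.197 and 0.245) and the other pairs lay between −0.24 and 0.098, which is too few pairs to settle it. Under the replicate block the counts of called genes were 6 at 16 h and 8 at 72 h, 3 for the change between times, and 0 in the comparisons with hesperitin. Of all genes, 3064 were called at 16 h, 3818 at 72 h and 2394 for the change between times. In the comparisons with hesperitin 0 to 7 of all genes were called. At 72 h, V replicate 3 and the unnumbered DOX library had no partner, so only the 2 same-numbered pairs bore on that count. The block also tied libraries of 16 h to same-numbered ones of 72 h in the fit of both times. In the change between times the replicate block ended the calls of Coq6 (−0.37, adjusted p = 0.055) and Coq10b (0.44, adjusted p = 0.14). The number of libraries, 3 per group, limits small differences.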
